A study of Mus musculus with 8 samples.

Results

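H3K27Ac peaks lying far from genes were examined in neonatal mouse ventricles with and without *Arid1a* in cardiomyocytes. A distal intergenic peak was defined here as a deposited peak under 10000 bp wide whose centre lay in no curated RefSeq transcript and more than 50 kb from every curated transcription start. This rule held for 5110 of 45987 peaks, or 11.1%, and used no measured value. The peaks come from H3K27Ac ChIP-Seq of P7 ventricles, from 2 Arid1a f/f Control hearts and 2 aMHC-Cre;Arid1a f/f cKO hearts (*Arid1a cKO*, the mutants), each with an input library. Both groups were 7 days old and carried floxed *Arid1a* alleles, and only the *Arid1a cKO* hearts also carried Cre, driven by the αMHC promoter in cardiomyocytes. The ventricles were bulk tissue, so that less mark per cell and fewer cells carrying it cannot be told apart. Levels are the authors' mean normalized read counts of each group, given without per-heart values. No error between hearts could therefore be computed, and no difference reported below was tested.

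ARID1A belongs to SWI/SNF, a remodelling complex that moves nucleosomes at enhancers and promoters. H3K27Ac is an acetylation of histone H3 found at active promoters and enhancers. Enhancers can lie very far from the gene they control, often in the long gene-poor intervals around developmental regulators, so the gene with the nearest start is only a name for a peak and need not be its target. VISTA elements are DNA fragments that were tested for enhancer activity in transgenic mouse embryos.

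The central 200 bases of the peaks with the 3 lowest and the 3 highest differences are shown first, to give the DNA at the extremes of the comparison. All sequences are from GRCm38 (mm10), on the plus strand. Capitals mark matches on either strand to any of 8 short motifs: AAGGTCA of estrogen-related receptors (ESRR), CATTCC of TEAD factors, TGANTCA of AP-1, AGATAA of GATA factors, TNAAGTG of NKX2-5, the CTCF core, the MEF2 core and the SRF CArG box. No motif in this set contains another.
peak near D7Ertd443e, chr7:134498537-134498736: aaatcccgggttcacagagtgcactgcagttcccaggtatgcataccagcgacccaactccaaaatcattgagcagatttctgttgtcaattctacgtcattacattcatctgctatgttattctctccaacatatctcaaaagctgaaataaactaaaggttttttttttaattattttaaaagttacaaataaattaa
peak near Clrn1, chr3:58804879-58805078: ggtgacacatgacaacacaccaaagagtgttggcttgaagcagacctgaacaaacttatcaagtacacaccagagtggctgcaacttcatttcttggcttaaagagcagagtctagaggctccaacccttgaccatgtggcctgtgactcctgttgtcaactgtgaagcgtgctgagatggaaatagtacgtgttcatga
peak near Ankrd50, chr3:38364003-38364202: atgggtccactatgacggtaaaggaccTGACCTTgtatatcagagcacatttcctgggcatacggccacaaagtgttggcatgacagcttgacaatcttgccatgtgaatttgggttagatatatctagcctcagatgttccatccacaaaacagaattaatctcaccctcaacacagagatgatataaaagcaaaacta
peak near Ptn, chr6:36673201-36673400: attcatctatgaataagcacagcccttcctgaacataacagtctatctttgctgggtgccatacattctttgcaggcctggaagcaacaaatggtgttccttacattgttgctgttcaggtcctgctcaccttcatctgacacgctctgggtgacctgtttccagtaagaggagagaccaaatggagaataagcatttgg
peak near Dyrk1a, chr16:94713738-94713937: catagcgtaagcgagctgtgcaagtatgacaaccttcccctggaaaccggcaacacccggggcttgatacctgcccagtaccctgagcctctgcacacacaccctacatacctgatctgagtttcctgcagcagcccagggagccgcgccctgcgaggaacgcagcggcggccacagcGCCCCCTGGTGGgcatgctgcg
peak near Anxa10, chr8:62280658-62280857: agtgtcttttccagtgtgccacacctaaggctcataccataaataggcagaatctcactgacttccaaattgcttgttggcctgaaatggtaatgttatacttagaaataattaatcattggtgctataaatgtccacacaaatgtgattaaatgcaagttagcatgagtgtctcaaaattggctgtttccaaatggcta

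The peak near *Ankrd50* held an ESRR match and the peak near *Dyrk1a* a CTCF match, and the other 4 windows held 0 matches. Short windows around the MEF2 core are shown next, because lower peaks held this core more often than the other peaks did. They come from 4 of the 5 intervals with the most lower peaks, 100 bases each, and capitals mark only the MEF2 core.
Fgf9 to 1700129C05Rik interval, chr14:58149976-58150075: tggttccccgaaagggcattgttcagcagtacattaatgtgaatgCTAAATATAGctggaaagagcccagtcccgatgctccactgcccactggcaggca
Pik3r1 to Cd180 interval, chr13:102362311-102362410: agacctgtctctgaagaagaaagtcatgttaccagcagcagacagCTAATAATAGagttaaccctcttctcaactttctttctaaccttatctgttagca
Slc4a3 to Gm17751 interval, chr1:75995356-75995455: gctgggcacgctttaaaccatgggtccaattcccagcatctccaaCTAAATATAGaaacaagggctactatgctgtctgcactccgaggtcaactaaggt
Ppargc1a to Mir6417 interval, chr5:51866123-51866222: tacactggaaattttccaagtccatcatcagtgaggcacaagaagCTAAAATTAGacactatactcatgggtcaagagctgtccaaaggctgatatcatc

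The central 200 bases of the 3 lowest peaks that overlapped VISTA elements with heart activity follow, since these elements have been tested as enhancers. Capitals again mark any of the 8 motifs.
mm308, near Gm12708, chr4:95318207-95318406: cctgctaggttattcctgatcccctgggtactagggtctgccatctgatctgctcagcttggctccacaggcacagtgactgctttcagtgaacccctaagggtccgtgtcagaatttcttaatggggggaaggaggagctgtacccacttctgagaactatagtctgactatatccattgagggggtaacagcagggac
mm196, near A330074K22Rik, chr8:120293690-120293889: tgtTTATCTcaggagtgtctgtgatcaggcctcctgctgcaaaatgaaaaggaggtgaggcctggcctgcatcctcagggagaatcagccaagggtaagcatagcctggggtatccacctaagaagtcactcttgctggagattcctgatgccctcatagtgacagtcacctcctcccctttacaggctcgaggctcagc
mm130, near E130101E03Rik, chr9:24888509-24888708: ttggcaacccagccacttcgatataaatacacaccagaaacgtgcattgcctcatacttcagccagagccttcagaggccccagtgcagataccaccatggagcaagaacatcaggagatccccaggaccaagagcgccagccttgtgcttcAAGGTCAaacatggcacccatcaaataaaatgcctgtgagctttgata

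The mark was weak at most distal intergenic peaks, and differences between the groups ran in both directions. The median level was 30.1 normalized reads in control and 28.8 in mutant hearts, against 44.9 and 42.8 over all peaks. A peak was called lower or higher where the group means, each set to at least 3 normalized reads, differed at least 2-fold. By this rule 676 distal intergenic peaks (13.2%) were lower in *Arid1a cKO* hearts, beside 10.6% of all peaks, and 394 (7.71%) were higher, beside 4.57% of all peaks. The remaining 4040 peaks were in neither class. The median log2 difference, *Arid1a cKO* minus control, was 0.08 over the distal intergenic peaks and 0.01 over all peaks. The log2 difference was under 0.5 in size at 2809 of them, or 55.0%, and at 65.3% of all peaks. Summed over the peaks, they held 5.86% of the normalized reads in control and 5.92% in mutant hearts.

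Lower peaks were of middling height in controls, and higher peaks were weak there. The calls were made from these same means, so part of this contrast follows from the rule. The median went from 35.3 normalized reads in controls to 9.45 in *Arid1a cKO* hearts at the lower peaks, and from 6.96 to 18.5 at the higher peaks. The median width was 1435 bp for lower peaks, 1026 bp for higher peaks and 1701 bp for the others. In *Arid1a cKO* hearts 127 lower peaks had a mean at or under the floor of 3 normalized reads, and in controls 51 higher peaks did. The folds of these peaks are lower bounds. No distal intergenic peak was at or under the floor in both groups, while 3632 had 20 or more normalized reads in at least 1 group.

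**Figure D1:**
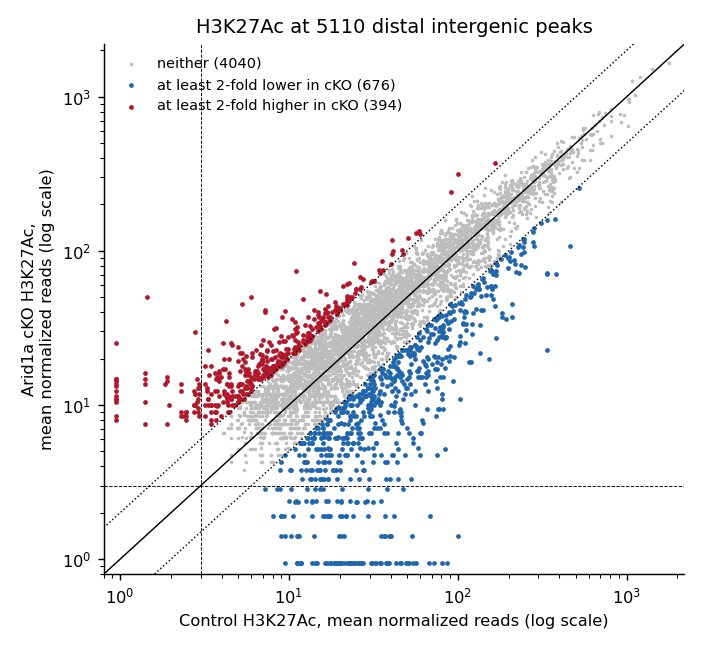
Mean normalized reads of each distal intergenic peak, with controls on the x axis and *Arid1a cKO* hearts on the y axis, both log scales. Each of the 5110 points is 1 peak, the dotted lines mark 2-fold, the dashed lines the floor of 3 reads; 127 lower peaks lie on or under the horizontal floor and 51 higher peaks on or left of the vertical one.

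The excess of called peaks over the whole table differed with the level of the mark. All peaks were ranked by their mean level and cut into 4 equal classes at 18.1, 44.2 and 126 normalized reads. In the lowest class 16.0% of 1683 distal intergenic peaks were lower, against 16.5% of all peaks in that class. In the second class the shares were 15.4% and 14.0%, in the third 11.0% and 9.14%, and in the highest 5.36% and 2.76%. For higher peaks, the shares were 15.8% of distal intergenic and 12.6% of all peaks in the lowest class, and 0.46% and 0.23% in the highest. Peaks within 1 kb of a start had a median of 122 normalized reads in controls, and 1.75% of them were lower.

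Genic peaks equally far from starts were the class most like them. Of 5491 peaks inside a transcript and over 50 kb from every start, 15.3% were lower and 5.39% higher, with a median log2 difference of −0.03. Of 8725 intergenic peaks between 1 and 50 kb from a start, 10.4% were lower and 6.37% higher. Distal intergenic peaks thus lay between these classes in their share of lower peaks and had the highest share of higher peaks of the 4 classes compared. At like levels this order of higher peaks did not always hold. In the third class of mean level 1.69% of distal intergenic and 1.89% of near intergenic peaks were higher, and in the highest 0.46% and 0.50%. In that highest class 6.46% of the far genic peaks were lower, against 5.36% of distal intergenic and 3.33% of near intergenic peaks. These differences in shares were not tested.

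**Figure D2:**
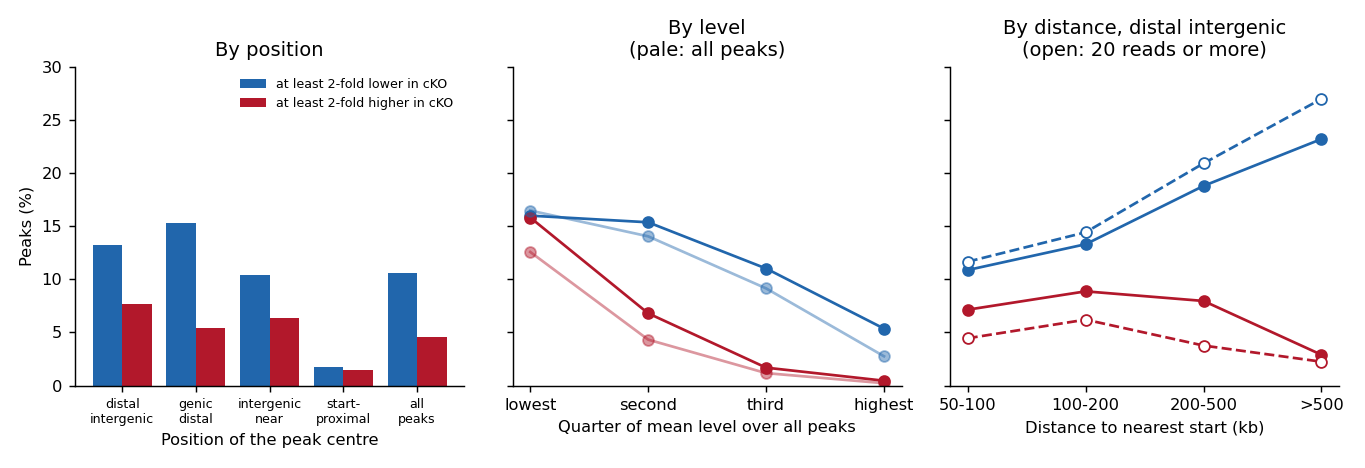
Percent of peaks at least 2-fold lower (blue) or higher (red) in *Arid1a cKO* hearts, by position (left), by class of mean level with all peaks in pale colours (middle), and, for distal intergenic peaks, by distance in kb to the nearest start with open points for peaks of 20 or more reads (right). The share of lower peaks goes from 10.9% at 50 to 100 kb to 23.2% beyond 500 kb.

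Peaks farther from genes were more often lower. Their distance to the nearest start ran from 50.03 to 1576 kb with a median of 101 kb. From 50 to 100 kb 10.9% of 2521 peaks were lower, from 100 to 200 kb 13.3% of 1647, from 200 to 500 kb 18.8% of 804, and beyond 500 kb 23.2% of 138. The share of higher peaks was 7.14%, 8.86%, 7.96% and 2.90% in the same order. Among peaks with at least 20 normalized reads in 1 group, the lower shares were 11.7%, 14.4%, 20.9% and 27%, and the higher shares 4.45%, 6.20%, 3.77% and 2.25%. The 32 lower peaks beyond 500 kb came from 25 intergenic intervals, with at most 2 from the same interval. Base composition moved with distance, as the median GC content of the central 500 bp went from 47.0% in the nearest to 42.0% in the farthest class; its part in the shares was not tested. At the limit of the rule the classes were alike: 11.5% of 910 peaks at 40 to 50 kb and 12.0% of 681 peaks at 50 to 60 kb were lower.

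The peaks farthest from any start lay next to *Efna5*, a ligand of Eph receptors. At 1576 kb the peak chr17:61304610-61306029 had 38.3 normalized reads in control and 6.63 in mutant hearts. Its neighbour at 1569 kb had 65.8 and 20.4 reads. Both were lower, by −2.53 and −1.69 on the log2 scale. The next 2 in order of distance, near *Pla2g4a*, went from 8.28 to 8.06 reads and from 23.9 to 42.8 reads, and neither was called.

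The lowest differences were found at peaks of middling height that were at or under the floor in the mutants. The peak chr7:134497146-134500128, 122 kb from the start of *D7Ertd443e*, had 99.7 normalized reads in control and 1.42 in mutant hearts, at least 33.2-fold lower. The peak chr3:58803690-58806269 near *Clrn1* went from 86.8 to 0.946 reads (at least 28.9-fold lower), and chr3:38363103-38365104 near *Ankrd50* from 81.0 to 0.946 (at least 27-fold). The other 7 of the 10 lowest lay near *Gm31583*, *Clec14a*, *Kdm4c*, *Pax8*, *1110058D11Rik*, *Fam181b* and *6330420H09Rik*. Their control means lay between 51.6 and 72.5 reads. All 10 were at or under the floor in *Arid1a cKO* hearts, with folds of at least 17.2 to at least 33.2.

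The highest differences started from little or no mark. Ranking by the difference itself favours peaks weak in controls here, and peaks weak in the mutants among the lowest differences. The peak chr6:36671890-36674713 lay 137 kb from the start of *Ptn*, which encodes the heparin-binding growth factor pleiotrophin, and had 1.44 normalized reads in control and 49.9 in mutant hearts, at least 16.6-fold higher. A smaller peak 133 kb from the same start had 17.5 and 33.1 reads and was not called. A peak near *Dyrk1a*, which encodes a protein kinase, went from 2.79 to 29.9 reads (at least 9.95-fold). Peaks near *Anxa10*, *Nfil3* and *Enpp6* had 44.9, 50.2 and 35 reads in *Arid1a cKO* hearts against 5.24, 5.94 and 4.23 in controls, folds of 8.57, 8.46 and 8.28. The other 5 of the 10 highest lay near *Mtpn*, *Gm12295*, *Ulbp1*, *Gm36718* and *Dnah5*, with folds from 5.78 to at least 8.37. None of these 20 extreme peaks held the MEF2 core in its central 500 bp.

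The most strongly marked peaks differed little. The 10 with the highest control means had 962 to 1771 normalized reads there and log2 differences between −0.66 and 0.22. The strongest, 58.8 kb from *Chaserr*, a long noncoding RNA gene beside *Chd2*, had 1771 reads in control and 1652 in mutant hearts. The next, near *Gm36173*, had 1418 and 1520. The largest difference among the 10 was at a peak between *Hes1* and *Cpn2*, with 1024 and 648 reads. A second peak between *Dyrk1a* and *Kcnj6*, 9101 bp wide, had 1082 and 1261 reads, and lies 8 kb from the peak near *Dyrk1a* that was among the 10 highest differences.

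Lower peaks occurred together in some gene-poor intervals. The distal intergenic peaks fell into 1523 intervals between neighbouring transcripts, of which 607 held 1 peak and 333 held 5 or more. In 439 intervals at least 1 peak was lower, in 302 at least 1 was higher, and in 78 both kinds occurred. There were 52 intervals with 3 or more lower peaks, which held 205 of the 676, and 14 with 3 or more higher peaks. Of the 333 intervals with 5 or more peaks, 23 had at least 50% of their peaks lower and 1 had at least 50% higher.

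The interval with most lower peaks runs from *Fgf9* to *1700129C05Rik* on chromosome 14. *Fgf9* encodes a fibroblast growth factor that acts on cardiomyocyte growth and vessel formation in the developing heart. Of its 15 peaks 9 were lower and 0 higher, with a median log2 difference of −1.21. Beginning nearest to *Fgf9*, the peak at 54.0 kb had 73.0 and 52.3 normalized reads in controls and *Arid1a cKO* hearts, and that at 77.4 kb, whose MEF2 core is shown above, 28.1 and 2.36. The peaks at 147, 181, 210 and 228 kb had 41.6 and 18.0, 46.2 and 0.946, 39.1 and 15.1, and 81.6 and 9.45 reads. All of these but the first were at least 2-fold lower, and the peak at 181 kb at least 15.4-fold. Farther in, peaks at 449 kb from *Fgf9* and at 516 kb from *1700129C05Rik* went from 38.3 to 2.85 and from 38.1 to 0.946 reads. The pair of strongest peaks of the interval, at 341 and 330 kb from *1700129C05Rik*, had 315 and 208, and 286 and 326 reads, and neither was called.

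The interval from *Ppargc1a* to *Mir6417* on chromosome 5 had the lowest median of the 9 named intervals. *Ppargc1a* encodes PGC-1α, a coactivator of genes for mitochondria and fatty acid oxidation. Of its 12 peaks 8 were lower and 0 higher, and the median log2 difference was −1.61. Summed over the interval, the mark went from 734 normalized reads in controls to 375 in *Arid1a cKO* hearts. The peak with the MEF2 core, 270 kb from *Mir6417*, had 111 and 40.8 reads. The lowest difference, −2.36, was at a peak of 17 and 3.32 reads, 151 kb from *Mir6417*. The strongest peak, with 360 and 228 reads, was not called, and 11 of the 12 differences were below 0.

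In the other 3 intervals with most lower peaks, the lower peaks lay among peaks that were not called. Between *Pik3r1*, which encodes a regulatory subunit of PI3-kinase, and *Cd180*, 7 of 20 peaks were lower and 2 were higher. The strongest of them went from 247 to 98.4 reads, and a peak 338 kb from *Cd180* from 30.7 to 0.946. Both higher peaks were weak, with 3.29 and 10.9 reads, and 3.34 and 15.7 reads. Between *Slc4a3*, an anion exchanger expressed in heart, and *Gm17751*, 7 of 16 peaks were lower and 0 higher. These 7 lay between 389 kb from *Slc4a3* and 294 kb from *Gm17751*, and the strongest had 236 and 95.7 reads. The 3 peaks nearest to *Slc4a3* had log2 differences of 0.85, 0.38 and 0.54. Between *Chd7*, a chromatin remodeller needed for heart development, and *Clvs1*, 7 of 15 peaks were lower and 0 higher. There the strongest peak had 428 and 425 reads, while a peak 186 kb from *Clvs1* went from 51.6 to 6.63.

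Higher peaks also shared intervals, but their differences were smaller. Between *Foxl1* and *1700018B08Rik* on chromosome 8, next to the *Foxf1* and *Foxc2* genes of vessel and mesenchyme development, 7 of 24 peaks were higher and 0 lower, with a median log2 difference of 0.70. The 3 strongest of the higher peaks went from 40.2 to 82.7, from 31.8 to 63.6 and from 22.2 to 61.4 reads. Between *Postn*, which encodes the matrix protein periostin made by fibroblasts, and *Supt20*, 6 of 14 peaks were higher, 0 lower and the median was 0.79. A peak 94.3 kb from *Supt20* went from 30.7 to 62.7 reads, and one 158 kb from it from 14.1 to 41.6. Between *4930448C13Rik* and *Trib2* 5 of 21 peaks were higher and 1 lower, and between *4930452A19Rik* and *Qk*, an RNA-binding protein gene, 5 of 20 were higher and 0 lower. In the last interval, peaks of 50.9 and 122 reads and of 35.8 and 85.6 reads stood beside the 2 strongest, of 405 and 437 and of 385 and 410 reads, which were not called.

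**Figure D3:**
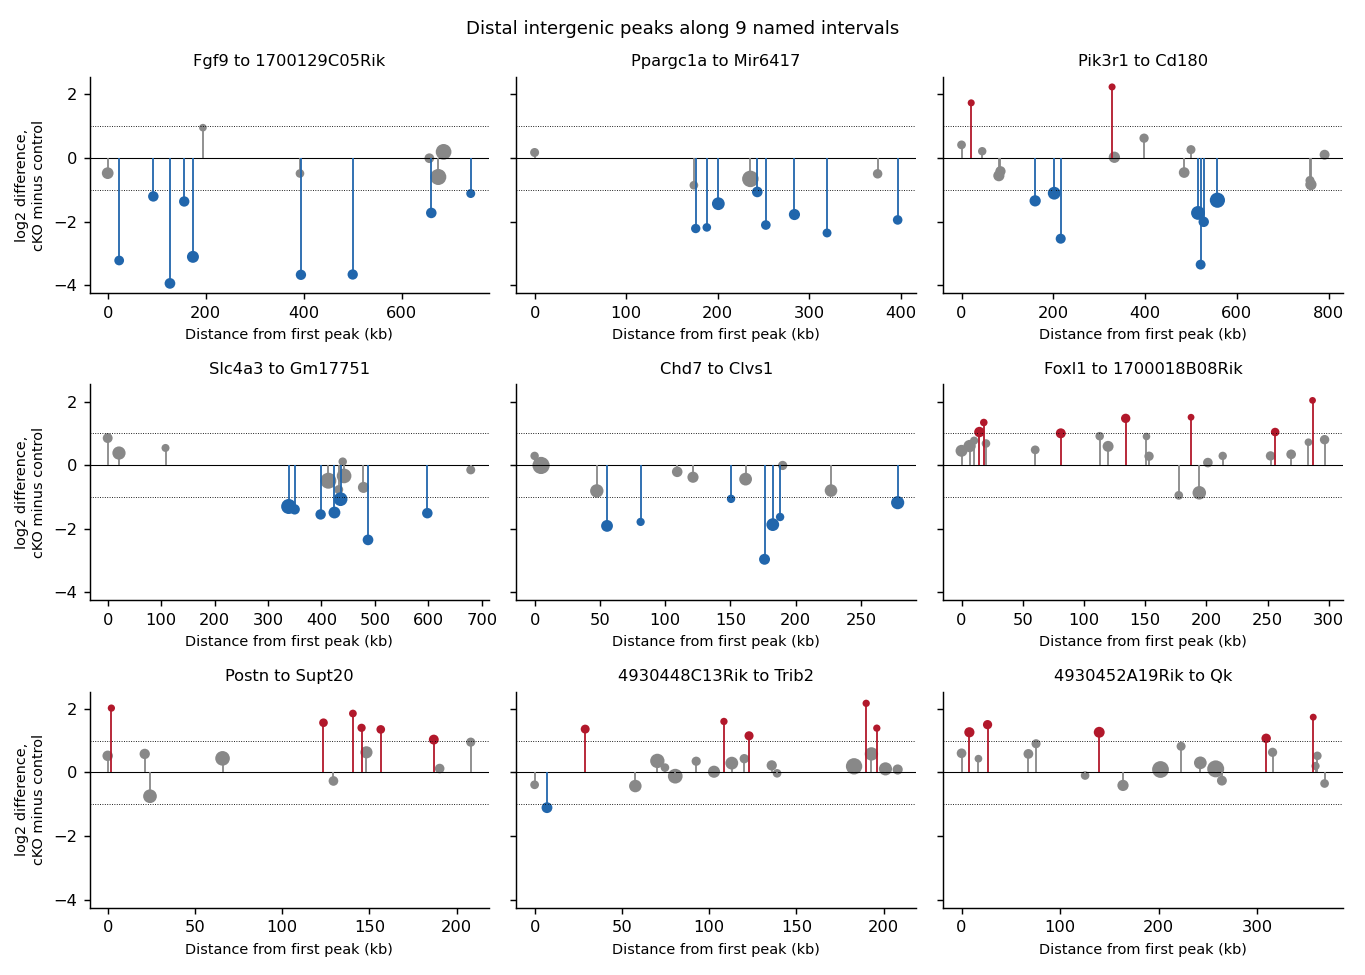
Log2 difference, *Arid1a cKO* minus control, of each distal intergenic peak (points, area growing with the control level) along the 5 intervals with most lower and the 4 with most higher peaks, against distance in kb from the first peak. Blue points are at least 2-fold lower, red points at least 2-fold higher and grey points neither; in the *Fgf9* interval 9 of 15 are blue, and in the *Foxl1* interval 7 of 24 are red.

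The differences of neighbouring peaks went together in part. Over 3587 pairs of neighbours within an interval, Spearman's rho of the log2 differences was 0.28 across pairs. It was 0.36 for 1533 pairs up to 10 kb apart and 0.25 for 1397 pairs at 10 to 50 kb. For 523 pairs at 50 to 200 kb it was 0.16, and for 134 pairs farther apart 0.15. Such pairs share libraries and chromosome region, and a wide acetylated domain can be split into several peaks, so they are not independent. Where the first of a pair up to 10 kb apart was lower, the next was lower in 65 of 157 cases (41.4%) and higher in 1. At 10 to 50 kb the next was lower in 48 of 155 cases (31%). At 50 to 200 kb it was lower in 20 of 95 (21.1%), and farther apart in 10 of 34 (29.4%). Where the first of a pair up to 10 kb apart was higher, the next was higher in 23 of 120 cases (19.2%). Over all distal intergenic peaks 13.2% were lower and 7.71% higher.

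Of the gene lists, ion channel and calcium handling genes had the lowest median. Of 22 distal intergenic peaks nearest to 7 of its 41 genes, 7 were lower and 0 higher, with a median log2 difference of −0.58. Over all 236 peaks nearest to the list's genes, 63 were lower and 9 higher. Beside these counts stand 13.2% lower and 7.71% higher over all distal intergenic peaks, and 10.6% and 4.57% over all peaks. The peak chr11:111212079-111215840, 148 kb from *Kcnj2*, the gene of the inward rectifier Kir2.1 that sets the resting potential, had 122 normalized reads in control and 28.8 in mutant hearts. A peak 76 kb from *Kcnd3*, a subunit of the transient outward potassium channel, had 198 and 77.7 reads. A peak near *Kcnd2*, the partner subunit, had 43.4 and 20.8, and a peak near *Kcnh2*, the rapid delayed rectifier channel, 23.3 and 5.21.

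Growth factor and receptor genes held both extremes. Of 32 peaks nearest to 14 of 62 genes, 10 were lower and 5 higher, with a median of −0.30. Over all 241 peaks nearest to the genes on that list, 24 were lower and 30 higher, with a median of 0.20. For comparison, 13.2% of all distal intergenic peaks were lower and 7.71% higher, and 10.6% and 4.57% of all peaks. *Fgf9* was nearest to 9 of the 32 peaks and to 6 of the 10 lower ones. A peak near *Fgf16*, a fibroblast growth factor of the heart, went from 45.6 to 15.1 reads, and one near *Fgf14* from 59.7 to 15.1. By contrast 3 of 4 peaks near *Fgf20* were higher, the strongest at 99.7 and 315 reads and the others at 16.9 and 40.2, and at 4.53 and 25.3. The remaining higher peaks lay near *Ptn* and near *Hgf*, the hepatocyte growth factor gene, with 18.0 and 40.2 reads at the latter.

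Cardiac transcription factor genes had peaks of either kind. Of 48 peaks nearest to 11 of 43 genes, 8 were lower and 6 higher, and the median was 0.02. These counts stand beside 13.2% lower and 7.71% higher over all distal intergenic peaks. Over all 271 peaks nearest to the list's genes, 36 were lower and 12 higher, with a median of −0.16. *Nr2f2*, an atrial and venous identity factor, was nearest to 12 peaks, of which 2 were lower. The stronger of these, 258 kb away, went from 110 to 25.1 reads, while 2 weak peaks were higher, at 9.65 and 21.4 and at 4.29 and 13.7. *Mef2a* was nearest to 10 peaks, with the strongest at 488 and 545 reads and the 2 lower ones, 107 and 110 kb away, at 48.2 and 13.7 and at 24.1 and 10.9. *Irx3*, a conduction system factor, had 1 lower peak of 6, at 17.3 and 4.26 reads.

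In the cell cycle and Hippo list 3 of 16 peaks were lower and 1 higher, and all 4 were nearest to *Ankrd1*, a YAP target gene and a cardiac stress marker. Its 3 lower peaks, 95 to 110 kb away, had 31.8 and 7.11, 29.9 and 11.9, and 73.0 and 17.1 reads. The higher peak, 63 kb away, had 11.5 and 24.3. The 7 peaks near *Ccnd1*, the cyclin D1 gene, had log2 differences between −0.38 and 0.39. In the metabolism list 4 of 12 peaks were lower and 0 higher, among them a peak near *Lpin1*, a phosphatidate phosphatase gene, at 61.0 and 8.06 reads and a peak near the fatty acid transporter gene *Cd36* at 13.7 and 5.70. In the sarcomere, Z-disc and cell junction list 2 of 11 were lower and 1 higher. The lowest was near *Sgcd*, which encodes the membrane protein δ-sarcoglycan, at 41.9 and 1.91 reads. The counts of these lists stand beside 13.2% lower and 7.71% higher over all distal intergenic peaks. Over all peaks nearest to cell cycle and Hippo genes, 12 of 169 were lower and 11 higher. For metabolism 19 of 122 were lower and 3 higher, and for sarcomere, Z-disc and cell junction 32 of 190 and 6. The lists hold few distal intergenic peaks, and a count of 1 or 2 peaks carries little weight.

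Peaks near genes of other heart cell types were mostly not called, and those near fibroblast genes had the highest median of the lists. Of 41 peaks nearest to 12 of 32 fibroblast and matrix genes, 6 were higher and 1 lower, with a median log2 difference of 0.52. Over all 190 peaks nearest to the list's genes, 23 were higher and 2 lower, with a median of 0.39. Over all distal intergenic peaks 7.71% were higher and 13.2% lower. Peaks near *Tcf21*, a fibroblast lineage factor, at 161 and 183 kb went from 26.4 to 68.1 and from 26.2 to 56.9 reads, and 7 others near that gene were not called. The lower peak was near *Sparc*, a matrix protein gene, at 39.9 and 1.42 reads. Of 44 peaks nearest to 8 of 27 endothelial genes, 4 were lower and 3 higher, with a median of 0.20. Over all 187 peaks nearest to endothelial genes of the list, 9 were lower and 10 higher, with a median of 0.07. The 9 peaks near *Kdr*, the VEGF receptor gene, had differences between −0.05 and 0.44 at up to 465 reads in controls. A peak 228 kb from *Cdh5*, the VE-cadherin gene, went from 136 to 21.9 reads. The 10 peaks near leukocyte genes held 0 called peaks, with a median of 0.34, and 0 peaks were nearest to a smooth muscle or pericyte gene of the list.

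**Figure D4:**
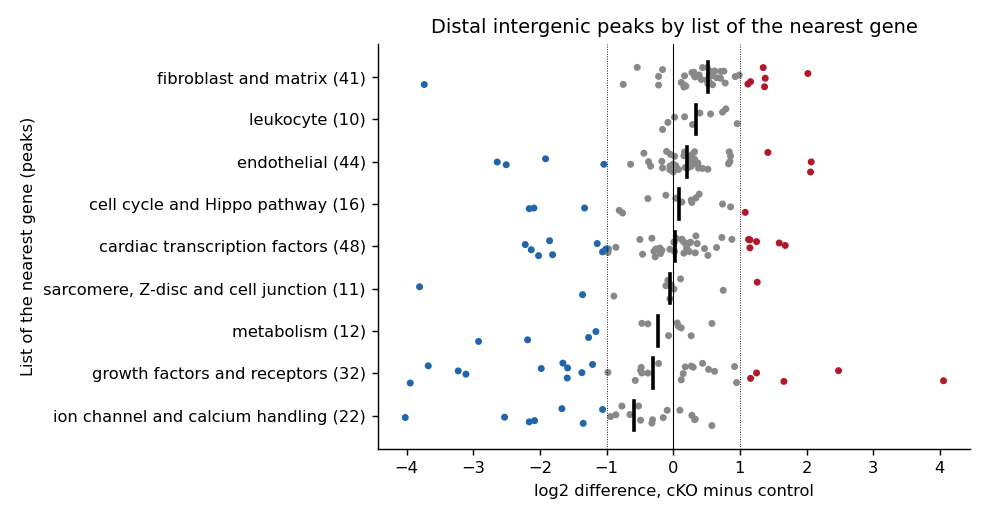
Log2 difference, *Arid1a cKO* minus control (x axis), of distal intergenic peaks grouped by the list of the nearest gene (y axis, number of peaks in brackets). Points are peaks, blue at least 2-fold lower and red at least 2-fold higher, thick bars are medians and dotted lines mark 2-fold; medians run from −0.58 for ion channel and calcium handling to 0.52 for fibroblast and matrix genes.

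At cell type marker genes' own starts, the summed mark differed little for cardiomyocyte and endothelial markers and was higher in mutants for fibroblast markers. All 8 cardiomyocyte markers had a peak within 1 kb of a start, and their summed level was 14346 normalized reads in control and 13602 in mutant hearts, a log2 difference of −0.08. Single cardiomyocyte markers lay between −0.43 and 2.24. The highest was *Nppa*, a gene of immature and stressed cardiomyocytes, whose peak went from 49.5 to 234 reads. The log2 difference was 0.13 at *Myh6*, 0 at *Tnni3*, −0.05 at *Ryr2* and −0.12 at *Myh7*. It was −0.15 at *Myl2*, −0.36 at *Actc1* and −0.43 at *Tnnt2*. For 6 of 6 fibroblast markers the sum went from 1565 to 2201, a log2 difference of 0.49 with single genes between 0.17 and 0.71. It was 4163 and 4329 for 6 of 6 endothelial markers, 1384 and 1782 for 3 of 4 smooth muscle and pericyte markers, and 169 and 197 for 2 of 5 leukocyte markers. Among smooth muscle and pericyte markers, *Acta2* went from 322 to 596 reads, *Pdgfrb* from 891 to 1017 and *Rgs5* from 171 to 169. No peak lay at the starts of *Ptprc*, *Adgre1*, *Cx3cr1* or *Myh11*, of 4 neural markers, or of 2 liver markers. The higher level at fibroblast starts moves with the higher median near fibroblast genes, and its part in that median was not tested.

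The DNA of distal intergenic peaks was poorer in GC than that of the whole table. The median GC content of their central 500 bp was 46.0%, against 49.2% over all peaks and 61.8% within 1 kb of starts. Genic peaks over 50 kb from starts had the same median of 46.0%, and near intergenic peaks had 48.4%. CpG-rich centres, with at least 50% GC and an observed to expected CpG ratio of at least 0.6, were found in 91 peaks. Of these 2 (2.20%) were lower and 6 (6.59%) higher, beside 13.2% and 7.71% of all distal intergenic peaks. Lower and higher peaks had medians of 45.6% and 45.8% GC.

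The MEF2 core was more frequent in lower peaks than in the others. MEF2 factors are activators of muscle genes, and their core was searched on both strands of the central 500 bp. It was present in 50 of 676 lower peaks (7.40%), 7 of 394 higher peaks (1.78%) and 127 of 4040 others (3.14%), beside 2.58% of all peaks. Of the 184 distal intergenic peaks with the core 27.2% were lower and 3.80% higher, with a median log2 difference of −0.42, against 12.7%, 7.86% and 0.09 without it. In the 3 lower classes of mean level the share of lower peaks was 33.9%, 27.4% and 26.5% with the core and 15.4%, 14.9% and 10.4% without it. In the highest class it was 5.88% of 17 peaks with the core and 5.35% without. The same contrast was seen in genic peaks over 50 kb from starts, where 6.41% of lower and 2.36% of higher peaks held the core. It was also seen over all peaks, where 22.8% of the 1186 with the core were lower, against 10.3% without it. These shares were not tested, and MEF2 was searched with earlier motif results of these data known.

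The ESRR motif followed the same order among distal intergenic peaks. ESRR factors activate genes of mitochondrial metabolism in heart, and other nuclear receptors can bind the same letters. AAGGTCA was present in 18.6% of lower, 9.14% of higher and 11.7% of other distal intergenic peaks, beside 11.3% of all peaks. In genic peaks over 50 kb from starts the contrast was smaller. There 15.9% of lower and 12.8% of higher peaks held it, beside 12.5% of all such genic peaks. Over all distal intergenic peaks 13.2% were lower and 7.71% higher. Of 28 distal intergenic peaks with both this motif and the MEF2 core 10 (35.7%) were lower and 1 (3.57%) higher. One of the 10 lower is the *Fgf9* peak at 77.4 kb.

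The other motifs differed less between the classes. The TEAD motif, bound by the partners of YAP, was in 32.8% of lower, 30.5% of higher and 30.4% of other peaks, beside 26.4% of all peaks. For GATA the shares were 30.8%, 27.4% and 27.9% (21.5% of all peaks), for NKX2-5 26.8%, 24.6% and 25.6% (22.2%), for AP-1 16.9%, 17% and 17.4% (14.4%), and for the SRF CArG box 3.85%, 3.30% and 3.39% (2.59%). The CTCF motif was in 0 lower, 3 higher and 22 other peaks, and in 0.91% of all peaks. A match is a description of the letters and not a bound site.

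**Figure D5:**
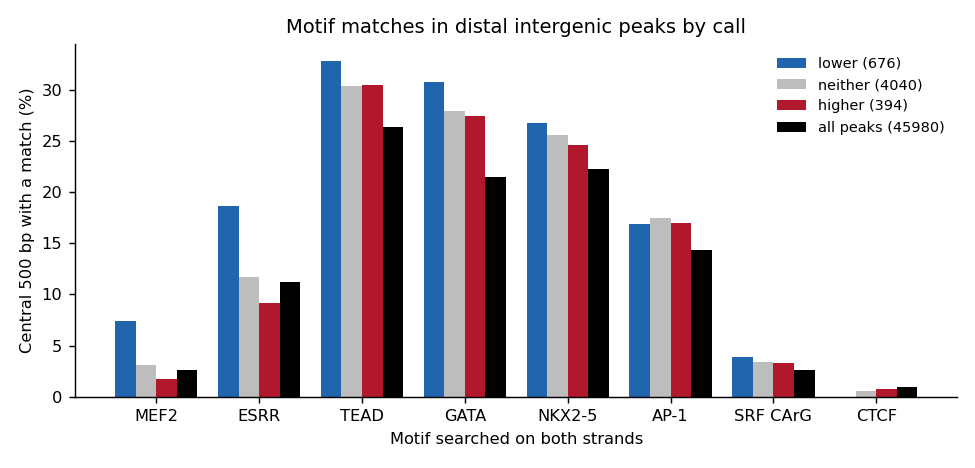
Percent of peaks with at least 1 match in the central 500 bp (y axis) for 8 motifs (x axis), in lower (blue), other (grey) and higher (red) distal intergenic peaks and in all peaks (black). The MEF2 core is in 7.40% of lower, 3.14% of other and 1.78% of higher peaks.

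Few distal intergenic peaks overlapped a tested enhancer. Of 620 VISTA elements with enhancer activity in the RefSeq annotation, 47 overlapped 46 peaks, of which 7 (15.2%) were lower and 0 higher, beside 13.2% lower over all distal intergenic peaks. Of the 159 elements with heart activity, 15 overlapped 15 peaks. Of these 4 were lower and 0 higher, with a median log2 difference of −0.49 and a median of 184 normalized reads in controls. Element mm130, between the cardiac transcription factor gene *Tbx20* and *E130101E03Rik*, lay under a peak of 21.4 and 4.72 reads, and mm196, near *A330074K22Rik*, under one of 47.5 and 10.9. Element mm308, near *Gm12708*, lay under a peak of 81.6 and 32.2 reads. The 2 strongest heart elements, mm74 and mm172, had 605 and 452, and 488 and 347 reads, and were not called.

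Some of these peaks are intergenic only by the curated annotation. In the GENCODE vM21 annotation 964 of the 5110 centres lay inside a transcript and 250 within 1 kb of a start. Of the 250, 9.60% were lower and 9.60% higher, against 13.4% and 7.61% of the other 4860. Predicted RefSeq transcripts covered 1080 centres, of which 14.6% were lower and 6.67% higher. By chromosome, the share of lower peaks ran from 8.72% of 298 on chromosome 18 to 18.8% of 218 on chromosome 6, and the highest share of higher peaks was 15.6% of 90 on chromosome 19.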

How the data were processed

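H3K27Ac ChIP-Seq was measured in ventricles of 2 control and 2 *Arid1a cKO* hearts at P7, with 4 input libraries. Alignment to mm10 (BWA 0.7.17-r1188), HOMER peak calling against merged inputs and the DiffBind 2.12.0 and DESeq2 1.24.0 comparison of peaks found in at least 2 samples were done by the authors. The deposited values used here are their log2 mean normalized read counts per group. Library scaling and input subtraction are not given in the sources used here. There were 0 columns of per-sample values, and depth is unknown. The deposited fold changes, p-values and FDR are the authors' own comparison and were not used.

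Positions were read against 45756 curated transcripts of GRCm38.p6, without 7 peaks outside the assembled chromosomes. Group means were set to at least 3 normalized reads, and 2-fold was called. Motifs were searched in the central 500 bp. Intervals are gaps between neighbouring curated transcripts. Named were the 10 lowest and 10 highest differences at 20 or more normalized reads in at least 1 group, the 10 highest control means, the intervals with most called peaks (5 lower, and 3 higher plus a tie), and peaks nearest to genes of 10 lists. Peaks, lists and motifs were chosen with earlier results of these data known. The steps were tested on simulated data with Python 3.11.15, numpy 2.4.6, pandas 2.3.3, scipy 1.17.1 and matplotlib 3.10.9. Some genes and sequences are not reported here.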

Additional observations from a re-analysis of the deposited data

How the results depend on the processing

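Of 63 alternative values 33 stayed within 1.5 times a main count or within the 95% interval of a main share or median, and 30 moved. These intervals treat peaks as independent and hold no error between hearts, so they serve only as a yardstick for the settings. With a limit of 1.5-fold, 1034 peaks (20.2%) were lower and 933 (18.3%) higher, beside 17.3% and 12.0% of all peaks, and 93 intervals held 3 or more lower peaks. With 3-fold, 375 (7.34%) were lower and 115 (2.25%) higher, beside 5.53% and 1.29% of all peaks, and 18 intervals held 3 or more. A floor of 10 normalized reads gave 10.2% lower, 177 (3.46%) higher and a median of 0.03, beside 8.01% and 2.1% of all peaks. With 20 or more normalized reads required in at least 1 group, 14.3% were lower and 177 (4.87%) higher, beside 10.3% and 2.73% of all peaks. Beyond 100 kb there were 2589 peaks, 402 lower (15.5%) and 214 higher, and beyond 20 kb 8945 peaks, 1074 lower (12.0%) and 647 higher. With predicted transcripts counted as genes 2055 peaks remained in the set, 298 lower (14.5%) and 171 higher. Over the central 1000 bp 11.1% of lower peaks held the MEF2 core, against 3.81% of higher, 5.05% of other and 4.21% of all peaks. A stricter or looser limit changes a count by construction, and why the shares moved was not tested. Without X and Y, without a floor, without a limit on width and after centring on the median of all peaks, no value moved. No paired analysis was possible because the deposited columns are group means that carry no replicate numbers, and leaving out a library was not possible for the same reason. A group mean can rest on 1 of its 2 libraries.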

Other observations

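These peaks and intervals were chosen after their values were seen and are given as values only. Among 884 distal intergenic peaks with a mean level over 100 normalized reads 59 were lower (6.67%) and 3 higher (0.339%). In the highest of the 4 level classes, over 126 reads, 5.36% of distal intergenic peaks and 2.76% of all peaks were lower. The lowest of the 59, nearest to *Mdga1*, had 335 reads in control and 22.8 in mutant hearts (14.7-fold). A peak near *1700025G04Rik* had 211 reads in control and 37.5 in mutant hearts. A peak near *Gm14321* went from 461 to 107 reads and a peak between *Sec61b* and *Nr4a3*, an orphan nuclear receptor gene, from 335 to 70.5. A peak near *Tmem100*, a gene of endothelial differentiation, had 156 and 59.3 reads, and a peak near *Hand2os1*, a noncoding gene beside the cardiac factor gene *Hand2*, had 231 and 109.

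In 2 intervals of 5 peaks every peak was at least 2-fold lower. Between *Olfm3* and *S1pr1*, a sphingosine phosphate receptor gene, the median log2 difference was −2.02, and the peaks included one of 335 and 71.5 reads and one of 519 and 258 reads that held the MEF2 core. Between *1810046K07Rik* and *Arhgap20* the median was −2.22, with a peak of 193 and 36.0 reads. Between *A730082K24Rik* and *Sox6*, which encodes a factor of muscle fibre type, 4 of 5 peaks were lower and the median was −1.23. Of 166 distal intergenic peaks with over 50% of the central 500 bp soft-masked as repeats 20.5% were lower, against 13.0% of the other 4944.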
